A study of Rattus norvegicus with 49 samples.

Results

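The response of rat liver to propylene glycol phenyl ether at 1000 mg/kg was set against the response of rat kidney to the same dose. The members are 18 of the 49 arrays in the series, chosen by organ and dose from the sample titles: 5 liver arrays at 0 mg/kg, 4 liver arrays at 1000 mg/kg, 5 kidney arrays at 0 mg/kg and 4 kidney arrays at 1000 mg/kg. Each gene has a change in liver (1000 minus 0 mg/kg) and a change in kidney, both on the log2 scale. The quantity tested was the liver change minus the kidney change, called the organ difference here. A positive organ difference is called liver-ward and a negative one kidney-ward.

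The animals were male Harlan Sprague Dawley rats, an outbred stock, aged 6 to 8 weeks when they were assigned to groups. They received the compound or vehicle alone by gavage on 5 consecutive days, and tissue was taken on the following day. The series title and every sample label name propylene glycol phenyl ether, whereas the general treatment text of the labels names another compound, MCHM, in corn oil. No tissue was taken at 2000 mg/kg because those animals were killed moribund, so 1000 mg/kg is the highest dose measured.

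Liver and kidney both clear foreign alcohols and ethers, but with different sets of enzymes. Hepatocytes oxidise such compounds, couple the products to glutathione, glucuronic acid, sulfate or glycine, and export them through transporters of the cell membrane. They also make much of the body's cholesterol, through a chain of enzymes that the SREBP2 transcription factor controls together. The kidney proximal tubule secretes and reabsorbs small molecules, makes glucose, and carries its own glutathione transferases. Both organs divide slowly in the adult, so genes of mitosis are read from a small share of their cells.

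Organ identity was as labelled. Alb, the albumin gene of hepatocytes, averaged 14.70 in control liver and 4.40 in control kidney, and Lrp2, the megalin receptor of the proximal tubule, averaged 6.82 and 12.54. The median log2 value per array ranged from 6.47 to 6.62 for liver and from 6.62 to 6.77 for kidney, and the lowest correlation between any pair from the same organ was 0.987. A gene was taken as near background in an organ when its mean there was under 4.87 in liver or 4.74 in kidney, the 75th percentile of 66 measured genes of other tissues. By this limit 9887 genes were above background in both organs, 801 were near background in liver only, 507 in kidney only and 3022 in both. In whole tissue, fewer cells of a type and less RNA per cell cannot be told apart.

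Of 14217 genes, 89 had an organ difference at a limma adjusted p under 0.05, which is 0.626% of those tested. Liver-ward genes numbered 62 (0.436%) and kidney-ward genes 27 (0.19%). The liver itself had 149 called genes (1.05%), 105 higher and 44 lower, and the kidney 220 (1.55%), 72 higher and 148 lower. Genes called in both organs numbered 7. Gsta3 and Aldh1l1 rose in both, Cdk1, Cdkn3, Nrep and Slpi fell in both, and Pacs2 rose in liver and fell in kidney. A call in 1 organ alone does not show that the organs differed. The liver and kidney changes correlated at r = 0.17 over all genes and 0.24 over genes above background in both organs. Across all genes the median change was 0.02 in liver and -0.02 in kidney, and the median organ difference was 0.04.

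The 62 liver-ward genes were made up in different ways. The gene rose in liver with no call in kidney for 32 of them, and it fell in kidney with no call in liver for 11. A further 17 were called in neither organ on its own, 1 rose in both (Gsta3) and 1 moved in opposite directions (Pacs2). Of the 27 kidney-ward genes, 13 rose in kidney only, 10 fell in liver only and 4 were called in neither. Of all 89, 73 were above background in both organs (55 liver-ward and 18 kidney-ward), and 58 differed by at least 1.5-fold.

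**Figure D1:**
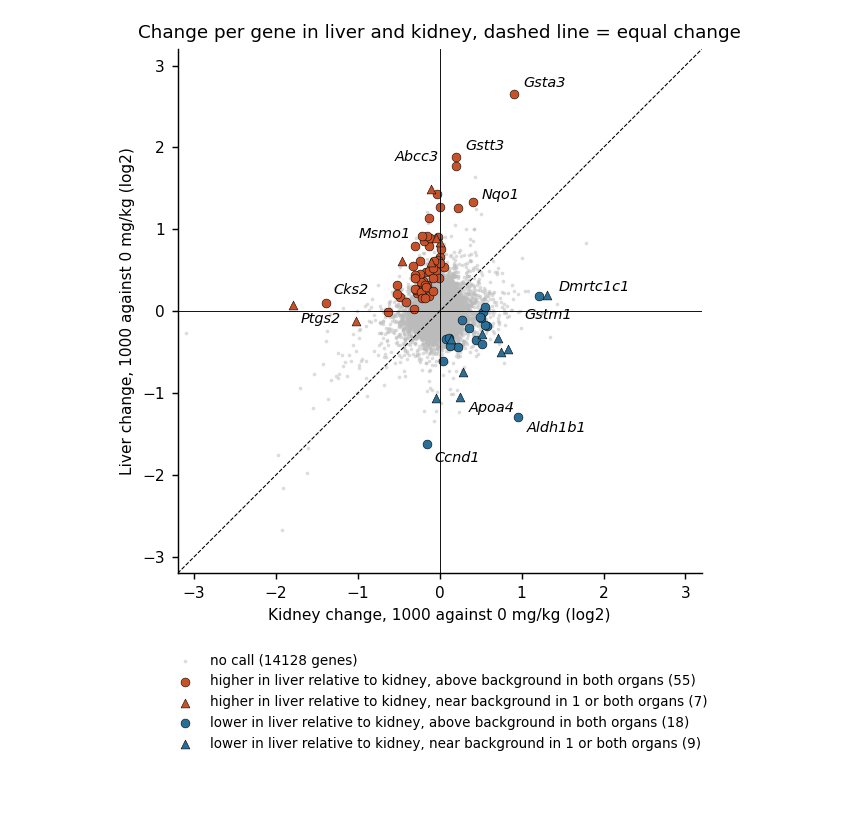
Each point is a gene, with its kidney change on the horizontal axis and its liver change on the vertical axis, both log2 of 1000 against 0 mg/kg. Orange and blue points are the 62 liver-ward and 27 kidney-ward genes; triangles mark genes near background in 1 or both organs. Of the 62 orange points, 32 stand for genes that rose in liver with no call in kidney, and the dashed line marks equal change in both organs.

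The count and its split depended on scaling and on the arrays used. With arrays centred on their median, 67 genes were called, 26 liver-ward and 41 kidney-ward, and with quantile normalization within the organ 74, 41 and 33. A fit of the 18 arrays alone called 20 genes. The count fell to 34 without liver 1000 mg/kg replicate 3, and it was 48 and 52 without kidney 1000 mg/kg replicates 1 and 2, 55 without liver 1000 mg/kg replicate 4, 57 and 58 without kidney control replicates 2 and 1, and 59 without liver control replicate 1. Kidney control replicate 4 was high in adipocyte markers, and the count was 42 without it and 6 intermediate-dose kidney arrays that were also high. The part of these markers in the count was not tested.

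Conjugation with glutathione showed organ differences in both directions. Of 21 measured glutathione transferases, Gstt3 and Gsta3 were liver-ward and Gstm1 and Gstz1 kidney-ward. Taken organ by organ, 6 of the 21 rose in liver, where 0.739% of all genes rose, and 5 rose in kidney, where 0.506% did. None fell in either organ by the limma test. The median organ difference of the list was 0.02, close to that of all genes, and it was -0.06 with arrays centred on their median, where the calls were 2 liver-ward and 4 kidney-ward.

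Gstt3, a theta class transferase, had the smallest adjusted p of all genes. Its liver control arrays read 8.94, 9.30, 9.23, 8.83 and 8.99, and the 1000 mg/kg arrays 10.69, 11.01, 11.07 and 10.99. In kidney the controls read 11.41, 11.34, 11.44, 11.45 and 11.63, and the 1000 mg/kg arrays 11.58, 11.52, 11.76 and 11.77. The liver groups were apart by more than their spread, whereas the kidney groups overlapped. Gstt3 rose 3.69-fold in liver, its kidney change was 0.20 ± 0.07 (SE), and the organ difference was 1.68 ± 0.17 (SE), with a 95% interval of 1.33 to 2.03 (limma adjusted p = 3.96e-08). It was called under all 30 alternatives run.

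Gsta3, an alpha class transferase, was the gene that rose in both organs by unequal amounts. Liver controls read 5.50, 7.35, 6.37, 7.12 and 7.53, and treated livers 9.23, 9.54, 9.68 and 9.24. Kidney controls read 6.65, 6.45, 5.96, 6.20 and 6.65, and treated kidneys 7.17, 7.28, 7.31 and 7.41. Treated arrays lay above controls in each organ, and the liver controls were the most scattered group. The rise was 6.27-fold in liver and 1.88-fold in kidney, an organ difference of 1.74 ± 0.38 (SE, limma adjusted p = 0.0177). The call was lost in 3 of 30 alternatives, with a limma adjusted p of 0.0607 without liver 1000 mg/kg replicate 3, 0.0922 in the fit of 18 arrays and 0.121 with a fixed replicate block.

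The kidney-ward transferases were abundant in liver and moved in kidney. Gstm1, a mu class transferase, read 7.78, 7.78, 8.18, 7.53 and 7.56 in kidney controls and 8.65, 9.06, 9.16 and 9.03 in treated kidneys. In liver it read 12.73, 12.66, 12.74, 12.94 and 12.77 in controls and 12.88, 12.88, 13.09 and 12.99 after treatment. The kidney groups did not overlap and the liver groups did. Gstm1 rose 2.31-fold in kidney against a liver change of 0.19 ± 0.09 (SE), and the organ difference was -1.02 ± 0.20 (SE, limma adjusted p = 0.00784). Gstz1, which also isomerises maleylacetoacetate in tyrosine breakdown, rose 1.42-fold in kidney and had an organ difference of -0.59 ± 0.11 (SE, adjusted p = 0.00341). Array probes for close members of this family may share transcripts, and this was not tested. A level as high as that of Gstm1 in liver can be close to saturation on an array, which was not tested either.

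The Gsta3 promoter is shown because the gene rose in both organs and its window holds the letters of the antioxidant response element, the site bound by NRF2, the main regulator of glutathione enzymes. The window is the 250 bases before the RefSeq start on build GRCr8, plus strand, chr9:31154739-31154988, with the match in capitals. The letters searched were TGACNNNGC on both strands. They were found in 5 of 17 glutathione transferase promoters (29.4%), in 4 of 24 NRF2 target promoters (16.7%) and in 12.3% of 11734 promoters of genes on the array. Among the other transferases with an organ difference, Gstt3 and Gstm1 had no match, and Gstz1 had 1, at 231 bases before the start. In Gsta3 the match starts 17 bases before the start.
Gsta3: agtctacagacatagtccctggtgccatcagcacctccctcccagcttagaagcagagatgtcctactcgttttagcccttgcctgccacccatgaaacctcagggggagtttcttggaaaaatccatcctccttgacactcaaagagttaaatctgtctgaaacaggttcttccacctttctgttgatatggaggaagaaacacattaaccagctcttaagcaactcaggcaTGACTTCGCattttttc

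Among 27 measured redox targets of NRF2, 7 rose and 1, Hmox1, fell in liver, where 0.739% of all genes rose and 0.309% fell. In kidney limma called none, and 10 of the 27 had an unadjusted p under 0.05. Over all genes 12.4% had such a p in liver, 13.3% in kidney and 12.3% in the organ difference. In the organ difference 13 of the 27 had such a p, and 23 lay above 0 (19 with arrays centred on their median). Nqo1 and Akr7a3 were called liver-ward, against 0.436% of all genes. Nqo1, a quinone reductase, read 6.85, 7.52, 7.27, 7.32 and 7.51 in liver controls and 8.71, 8.55, 8.78 and 8.45 in treated livers. Its kidney controls read 7.14, 6.94, 6.20, 6.75 and 7.21 and treated kidneys 7.15, 7.12, 7.42 and 7.31. The liver groups did not overlap and the kidney groups did. The organ difference was 0.93 ± 0.21 (SE, limma adjusted p = 0.0216). Akr7a3, an aldehyde reductase, rose 2.40-fold in liver and differed by 1.04 ± 0.24 (SE, adjusted p = 0.0256). Both were sensitive to the arrays used: Nqo1 was called under 23 and Akr7a3 under 18 of 30 alternatives. The list's median change was 0.25 in liver and 0.05 in kidney.

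The exporter Abcc3 and the esterase Ces2c were liver-ward. Abcc3, an exporter of organic anions and conjugates to the blood, read 5.51, 5.39, 4.86, 5.09 and 6.09 in liver controls and 6.65, 7.32, 7.53 and 7.13 in treated livers. Kidney controls read 6.06, 6.17, 6.07, 6.01 and 5.85, and treated kidneys 6.32, 6.13, 6.28 and 6.19. Abcc3 rose 3.41-fold in liver, its kidney change was 0.20 ± 0.08 (SE), and the organ difference was 1.58 ± 0.21 (SE, limma adjusted p = 2.04e-05). It was the 1 gene of 27 measured drug transporters with an organ difference. Ces2c, a carboxylesterase, rose 2.42-fold in liver with a kidney change of 0.01 ± 0.11 (SE), and differed by 1.27 ± 0.21 (SE, adjusted p = 0.000683). It was called under all 30 alternatives.

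Acsm2, which activates medium-chain and aromatic acids before glycine is added, started from unlike levels. Liver controls read 6.19, 7.16, 6.64, 6.14 and 7.25, and treated livers 8.20, 7.84, 8.53 and 7.83. All 9 kidney arrays read between 12.85 and 13.13. Acsm2 rose 2.69-fold in liver, and the organ difference was 1.47 ± 0.24 (SE, limma adjusted p = 0.000842). A level this high on an array can be close to saturation, and this was not tested.

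Targets of the nuclear receptors CAR and PXR could be compared only in part, because 12 of 22 measured members were near background in kidney. In liver 5 of the 22 rose and none fell, where 0.739% of all genes rose. In kidney limma called none, and 5 had an unadjusted p under 0.05. Ces2c and Cyp3a23-3a1 had an organ difference, both liver-ward, against 0.436% liver-ward over all genes. In the organ difference 11 of the 22 had an unadjusted p under 0.05, against 12.3% over all genes. The list's median was 0.32 (0.24 with arrays centred on their median), and 16 members lay above 0 (15 with that centring). For Cyp3a23-3a1, a cytochrome P450 of the CYP3A family, all 9 kidney arrays lay between 2.71 and 3.56, near background, and its organ difference was 0.83 ± 0.20 (SE, limma adjusted p = 0.0408). That call held under 13 of 30 alternatives and was lost with arrays centred on their median (adjusted p = 0.0973). Of 9 measured targets of the aryl hydrocarbon receptor limma called none in the organ difference, and 2 had an unadjusted p under 0.05.

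Genes of cholesterol synthesis formed the group with the most organ differences. Of 18 measured genes, all above background in both organs, 10 were liver-ward and none kidney-ward, against 0.436% liver-ward over all genes. In liver 12 of the 18 rose, where 0.739% of all genes did. In kidney limma called none, and 4 had an unadjusted p under 0.05. The median change was 0.69 in liver and -0.11 in kidney, and the median organ difference was 0.70. All 18 had an organ difference above 0, also with arrays centred on their median, where the median was 0.62 and 6 were called.

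The called genes lay along the pathway from start to end, but not at every step. Acat2, which condenses acetyl-CoA units, read 8.89, 8.19, 9.14, 9.03 and 9.17 in liver controls and 9.66, 9.81, 10.44 and 10.21 in treated livers. Its kidney controls read 7.61, 7.38, 7.75, 7.76 and 7.43 and treated kidneys 7.36, 7.43, 7.46 and 7.55. The liver groups were apart and the kidney groups overlapped, and the organ difference was 1.28 ± 0.24 (SE, limma adjusted p = 0.00342). In the mevalonate steps, Mvk, Mvd and Idi1 differed by 0.65, 1.10 and 1.02. Sqle, the squalene epoxidase, differed by 1.14 ± 0.27 (SE, adjusted p = 0.0309).

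Of the enzymes that trim lanosterol to cholesterol, Cyp51, Msmo1, Hsd17b7, Ebp and Dhcr7 were liver-ward, by 0.85, 1.07, 1.05, 0.49 and 0.93. Msmo1, a sterol methyl oxidase, read 11.21, 10.34, 11.32, 11.00 and 11.56 in liver controls and 11.81, 12.03, 12.13 and 12.02 in treated livers. In kidney it read 8.35, 8.34, 8.57, 8.48 and 8.34 in controls and 8.10, 8.26, 8.32 and 8.35 after treatment. Liver control replicate 2 was the lowest liver array for all 10 called genes. The organ difference of Msmo1 was 1.07 ± 0.21 (SE, limma adjusted p = 0.00702).

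Fdft1 and Tm7sf2 rose in liver by 0.68 and 0.62 with kidney changes of 0.36 and 0.36, and their organ differences of 0.32 and 0.26 were not called (limma adjusted p = 0.388 and 0.593). Sterol sensing and uptake, the regulators around the pathway, had no organ difference called by limma in 12 measured genes, and 3 had an unadjusted p under 0.05. Among them Insig1, the sterol-sensing retention factor, had a liver change of 0.76 (limma adjusted p = 0.341).

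**Figure D2:**
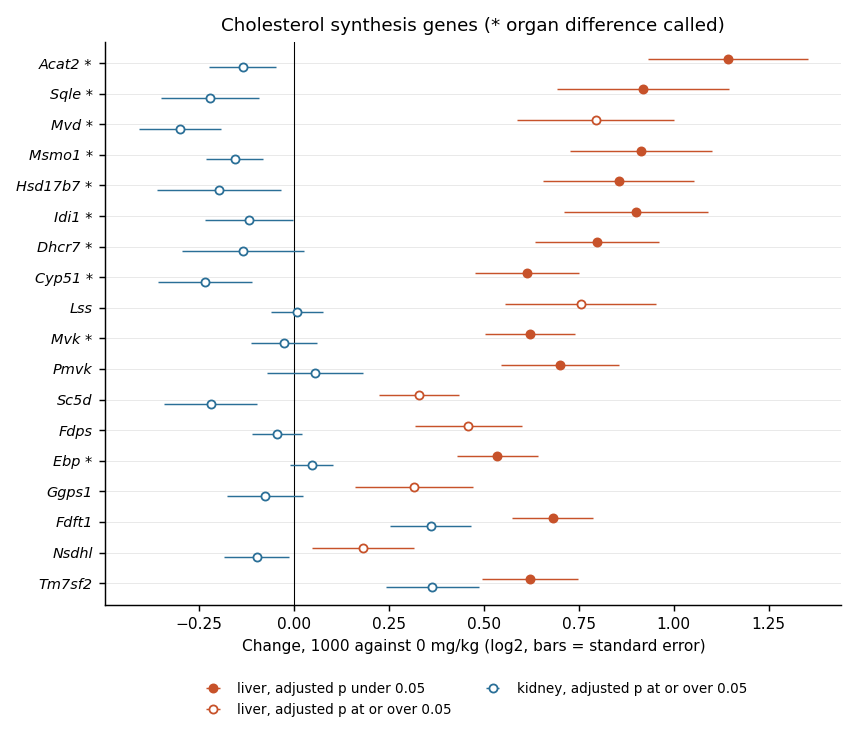
Changes of the 18 measured cholesterol synthesis genes in liver (orange) and kidney (blue), log2 of 1000 against 0 mg/kg with standard errors; filled points passed the test in that organ and stars mark the 10 genes with an organ difference. All liver points lie above 0, with 12 filled, whereas kidney points lie on both sides of 0 and none is filled.

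The number of cholesterol genes called depended on the arrays used. It was 0 with a fixed replicate block over the 18 arrays, 1 in the fit of the 18 arrays alone and 2 without kidney arrays high in adipocyte markers. It was also 2 without liver 1000 mg/kg replicate 3, 3 without kidney 1000 mg/kg replicate 1, 4 without liver control replicate 2, and 6 without kidney control replicate 2, kidney 1000 mg/kg replicates 2 or 3, liver control replicate 4 or liver 1000 mg/kg replicate 4.

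The promoters of Msmo1 and Idi1 are shown as examples of genes that rose in liver and had no call in kidney. CCAAT, the binding letters of the factor NF-Y that acts beside SREBP2 at sterol genes, was found on either strand in 12 of 15 cholesterol synthesis promoters of 250 bases (80.0%) and in 35.1% of the 11734 array promoters. One form of the sterol response element, TCACNCCAC on both strands, was in 0 of the 15 and in 0.98% of array promoters, which says only that these letters are not in these windows. CCAAT was absent on both strands from the windows of Acat2, Cyp51 and Dhcr7, which were liver-ward. It was present in those of Fdps, Ggps1, Lss, Tm7sf2, Nsdhl and Sc5d, which had no organ difference called. Capitals mark CCAAT or its reverse complement, ATTGG. The windows, from RefSeq on build GRCr8, are chr16:29746863-29747112 on the plus strand for Msmo1 and chr17:66547525-66547774 on the minus strand for Idi1. The matches start 173, 109 and 68 bases before the start in Msmo1, and 66 and 35 in Idi1.
Msmo1: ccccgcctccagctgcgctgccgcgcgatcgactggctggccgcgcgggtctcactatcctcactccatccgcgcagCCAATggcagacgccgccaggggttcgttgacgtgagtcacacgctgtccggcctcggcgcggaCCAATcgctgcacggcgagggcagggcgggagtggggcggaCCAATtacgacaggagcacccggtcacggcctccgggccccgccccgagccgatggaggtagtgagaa
Idi1: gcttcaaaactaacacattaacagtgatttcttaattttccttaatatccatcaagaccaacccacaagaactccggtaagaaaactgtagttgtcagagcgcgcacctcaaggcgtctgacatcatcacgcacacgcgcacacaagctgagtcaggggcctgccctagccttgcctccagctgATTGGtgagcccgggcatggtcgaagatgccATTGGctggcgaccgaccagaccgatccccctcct

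Mitosis genes moved down in kidney in large number, and the organ difference seldom passed the test. Of 48 measured genes, 35 fell in kidney, where 1.04% of all genes fell, and 3 fell in liver (Cdk1, Cdkn3 and Kif18b), where 0.309% did. In liver 45 of the 48 changes were below 0 and 24 had an unadjusted p under 0.05, against 46 and 41 in kidney. The median change was -0.93 in kidney and -0.48 in liver. The median organ difference was 0.30, and 0.22 with arrays centred on their median. Only Cks2 was called in the organ difference. For the other genes a call in kidney without one in liver does not show that the organs differed.

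The liver count depended on an array outside the 2 doses compared. Liver 500 mg/kg replicate 3 had a mean of 6.16 over the 48 genes, against 4.84 to 5.00 in the other 3 arrays of its group, and it entered the estimate of spread. Without it, a fit added after the data were seen, 9 of the 48 genes fell in liver (0.345% of all genes fell), and the median liver standard error was 0.18 in place of 0.25. Cks2 remained the 1 gene called in the organ difference.

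Part of the list was near background. Of the 48, 28 were above background in both organs, and 21 of these fell in kidney and 2, Cdk1 and Cdkn3, in liver. A further 11 were near background in liver only and 9 in both. Ccna2, cyclin A2, is an example near background in liver: it fell by 1.97 in kidney (limma adjusted p = 2.52e-05), its liver change was -1.76 (adjusted p = 0.0574, and 0.00762 without liver 500 mg/kg replicate 3), and its organ difference was 0.22 ± 0.52 (SE, adjusted p = 0.907). Cdk1, the kinase that starts mitosis, fell 3.06-fold in kidney and 3.94-fold in liver, and its organ difference was -0.36 with a 95% interval of -1.22 to 0.49.

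Cks2 is a small subunit that binds Cdk1. Kidney controls read 7.45, 8.08, 7.47, 7.67 and 7.24, and treated kidneys 6.17, 6.26, 6.02 and 6.36. Liver controls read 7.85, 7.96, 7.75, 7.90 and 7.90, and treated livers 7.71, 7.93, 7.98 and 8.25. The kidney groups were apart and the liver groups overlapped. Cks2 fell 2.61-fold in kidney, its liver change was 0.10 ± 0.14 (SE), and the organ difference was 1.48 ± 0.21 (SE, limma adjusted p = 9.24e-05), called under all 30 alternatives.

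**Figure D3:**
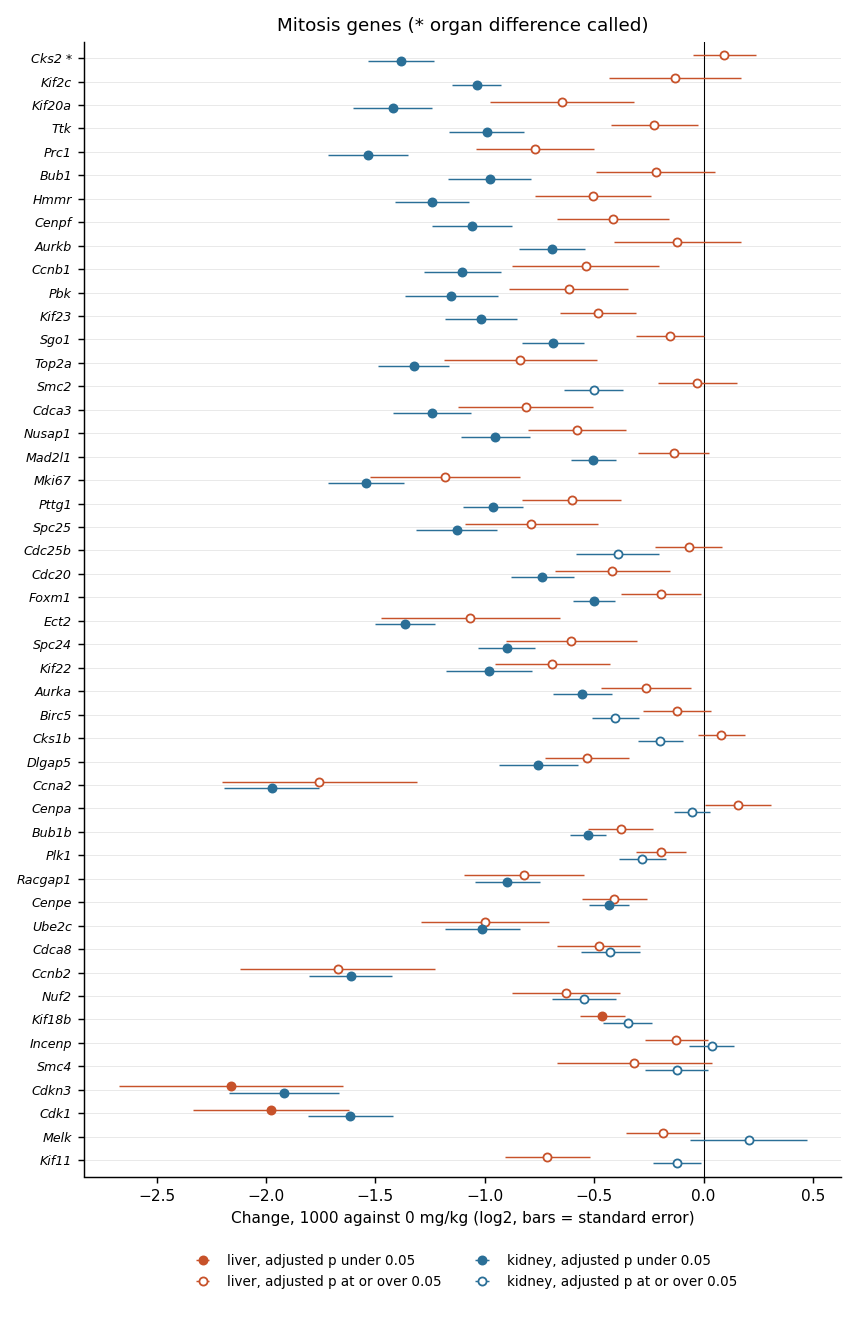
Changes of the 48 measured mitosis genes in liver (orange) and kidney (blue), log2 of 1000 against 0 mg/kg with standard errors; filled points passed the test in that organ and the star marks the gene with an organ difference. In kidney 35 of 48 points are filled, and in liver 3. Standard errors come from all arrays of the organ, and the median liver bar of 0.25 becomes 0.18 without liver 500 mg/kg replicate 3.

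Promoters of mitotic genes carry a cell-cycle homology region, CHR, that the DREAM complex binds when cells rest. Its letters, TTTGAA on both strands, were found in 20 of 41 mitosis promoters of 250 bases (48.8%) and in 10.9% of array promoters, and CCAAT in 33 of the 41 (80.5%). The window of Cks2, with an organ difference, is shown beside that of Top2a, the mitotic topoisomerase, which fell by 1.33 in kidney, changed by -0.84 in liver (limma adjusted p = 0.307) and was not called in the organ difference (adjusted p = 0.667). Both hold a CHR match near the start, 19 bases before it in Cks2 and 22 in Top2a. The windows are chr17:13727520-13727769 and chr10:84473094-84473343, both on the minus strand of GRCr8 from RefSeq, with the CHR letters or their reverse complement, TTCAAA, in capitals.
Cks2: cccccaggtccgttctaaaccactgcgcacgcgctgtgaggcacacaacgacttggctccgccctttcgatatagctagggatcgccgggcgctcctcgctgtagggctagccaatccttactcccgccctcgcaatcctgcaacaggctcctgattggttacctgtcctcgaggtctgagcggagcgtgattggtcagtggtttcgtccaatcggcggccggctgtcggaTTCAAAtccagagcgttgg
Top2a: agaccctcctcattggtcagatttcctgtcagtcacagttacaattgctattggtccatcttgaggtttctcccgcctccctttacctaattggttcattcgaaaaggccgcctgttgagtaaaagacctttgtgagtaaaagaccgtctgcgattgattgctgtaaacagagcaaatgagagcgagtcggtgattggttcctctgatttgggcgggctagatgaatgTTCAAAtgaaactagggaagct

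Ccnd1 was kidney-ward, unlike most of its list. The 21 measured G1 cyclins and kinase inhibitors had a median organ difference of 0.15, with 17 above 0 (13 with arrays centred on their median). Ccnd1, cyclin D1, which drives entry into the cycle, read 9.92, 10.16, 8.91, 9.39 and 9.76 in liver controls and 8.04, 7.74, 8.31 and 7.95 in treated livers. Kidney controls read 10.92, 10.38, 10.74, 10.79 and 11.30, and treated kidneys 10.70, 10.69, 10.68 and 10.65. Ccnd1 fell 3.07-fold in liver, its kidney change was -0.15 ± 0.18 (SE), and the organ difference was -1.47 ± 0.32 (SE, limma adjusted p = 0.0163). All 3 of its probe sets were called. It was the 1 gene of the list that limma called in the organ difference. Among 41 DNA replication genes, 5 fell in kidney, where 1.04% of all genes fell. In liver limma called none, and 1 had an unadjusted p under 0.05. Pcna, the sliding clamp, had a liver-ward difference of 0.35 ± 0.08 (SE, adjusted p = 0.0403) that was lost with arrays centred (adjusted p = 0.132), with quantile normalization (0.0834) and in 16 other alternatives, up to 0.261.

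**Figure D4:**
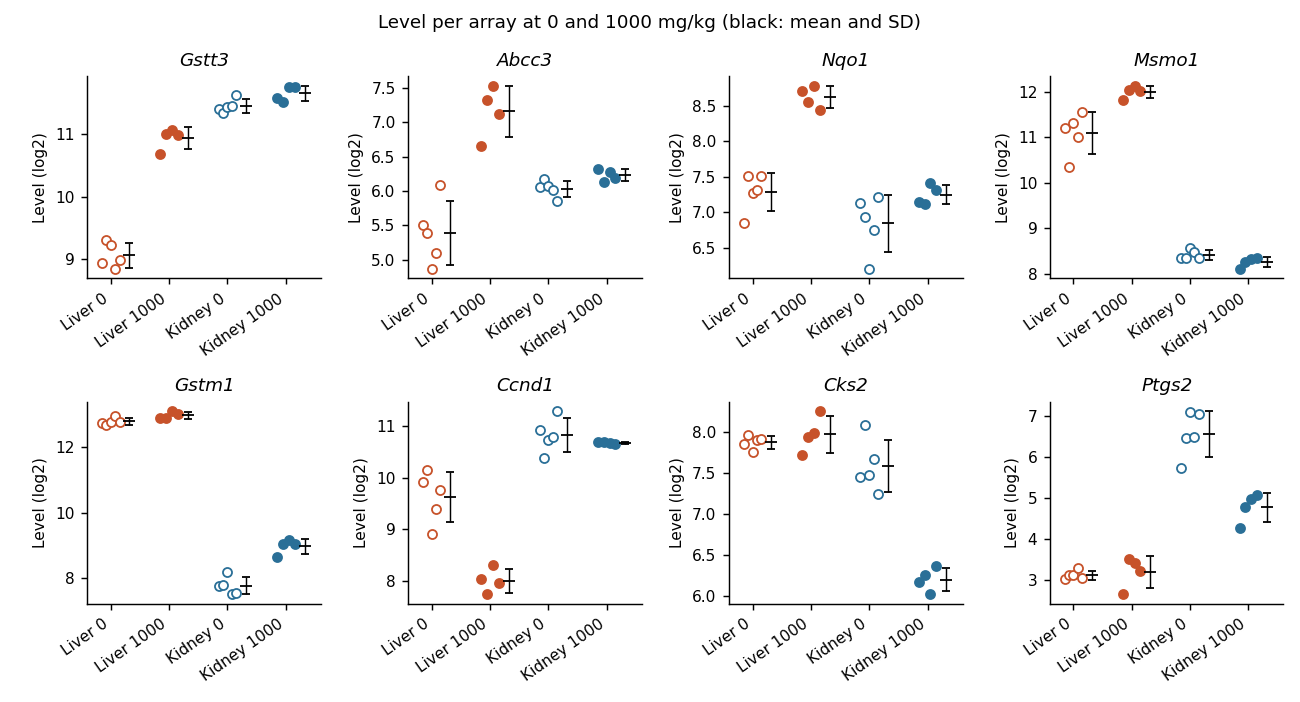
Log2 level on each array for 8 genes in the 4 groups, open points for 0 and filled points for 1000 mg/kg, with the mean and SD in black beside each group of 4 or 5 arrays. In Gstt3, Abcc3, Nqo1 and Msmo1 the liver groups are apart, in Gstm1, Cks2 and Ptgs2 the kidney groups are apart, and in Ccnd1 the liver groups are apart with the treated arrays lower.

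Several enzymes of intermediary metabolism were kidney-ward. Pck1, the gluconeogenic enzyme that makes phosphoenolpyruvate, read 12.93, 13.14, 12.82, 12.47 and 12.94 in kidney controls and 13.51, 13.52, 13.29 and 13.19 in treated kidneys. Liver controls read 13.26, 12.88, 12.87, 13.11 and 12.88, and treated livers 12.88, 12.93, 12.52 and 12.06. Treated kidneys lay above all control kidneys, and the liver groups overlapped. Pck1 rose 1.43-fold in kidney, its liver change was -0.41 ± 0.16 (SE), and the organ difference was -0.92 ± 0.21 (SE, limma adjusted p = 0.0218). It was called under 21 of 30 alternatives. The limma adjusted p was 0.07 without the kidney arrays high in adipocyte markers, a list that includes Pck1, and 0.108 at most.

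Pc, pyruvate carboxylase, the preceding step, fell 1.34-fold in liver with a kidney change of 0.12 ± 0.10 (SE), and differed by -0.55 ± 0.13 (SE, limma adjusted p = 0.0422), a call that held under 13 of 30 alternatives. These were the 2 calls among 24 genes of gluconeogenesis and glucose handling. Papss2, which makes the sulfate donor for sulfation, rose 1.36-fold in kidney, and its liver change was -0.36 ± 0.09 (SE). Its organ difference was -0.80 ± 0.14 (SE, adjusted p = 0.00171), called under 29 of 30 alternatives.

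In methyl-group metabolism the calls were in kidney. Of 19 measured genes of methionine and homocysteine, 4 rose in kidney (Gnmt, Ahcy, Bhmt and Dmgdh), where 0.506% of all genes rose. In liver limma called none, and 3 had an unadjusted p under 0.05. Dmgdh, which oxidises dimethylglycine, differed by -0.54 ± 0.12 (SE, limma adjusted p = 0.0239). Bhmt, the betaine-dependent methyltransferase, had the larger difference, -0.96 ± 0.27 (SE), and was not called (adjusted p = 0.0933). The list's median organ difference was -0.23 (-0.31 with arrays centred on their median), and 13 of 19 members lay below 0.

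Fatty acid oxidation had 1 call in each direction. Among 45 measured targets of PPAR alpha and genes of fatty acid oxidation, 2 rose in liver and 5 rose in kidney. Over all genes 0.739% rose in liver and 0.506% in kidney. Acadm, the medium-chain acyl-CoA dehydrogenase, rose 1.21-fold in kidney and was kidney-ward by -0.38 ± 0.08 (SE, limma adjusted p = 0.00784). Decr2, a reductase of peroxisomal oxidation, rose 1.40-fold in liver and was liver-ward by 0.66 ± 0.14 (SE, adjusted p = 0.0155). The Decr2 call was lost in 3 of 30 alternatives, at 0.0675 in the fit of 18 arrays, 0.0759 with arrays centred on their median and 0.149 with a fixed replicate block. Ehhadh, the peroxisomal bifunctional enzyme, rose in kidney by 0.71, changed by 0.52 in liver (adjusted p = 0.0692) and was not called in the organ difference (adjusted p = 0.703). Elovl5, a fatty acid elongase, fell 1.26-fold in liver and was kidney-ward by -0.41 ± 0.09 (SE, adjusted p = 0.0108). It belongs to another list, fatty acid and triglyceride synthesis, and was unlike most of it. Of 24 measured genes there, 19 had an organ difference above 0 (17 with arrays centred on their median). The median was 0.27 (0.19 with that centring), and the calls were 1 liver-ward and 1 kidney-ward.

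The largest kidney-ward value was also among the least certain. Aldh1b1, a mitochondrial aldehyde dehydrogenase, read 8.46, 8.05, 8.65, 7.59 and 7.89 in liver controls and 6.99, 6.77, 6.51 and 7.04 in treated livers. Kidney controls read 5.91, 5.74, 5.12, 6.51 and 7.41, and treated kidneys 6.38, 7.34, 7.89 and 6.78, so the kidney groups overlapped. The organ difference was -2.25 ± 0.57 (SE, limma adjusted p = 0.0492), and the call held under 8 of 30 alternatives. The other kidney-ward genes above background in both organs had smaller differences: C8g, a complement subunit, -0.75, Enpp5 -0.72, Ccdc191 -0.67, Paqr9 -0.64, Pip4k2a, a lipid kinase, -0.56 and Rpusd3 -0.56. C8g is made in liver. In kidney the mean of 11 hepatocyte markers ranged from 3.77 to 4.14 in controls and from 3.88 to 4.35 in treated arrays, 9 of the 11 were near background, and 7 changes were above 0 with none called by limma. Alb changed by 0.05, and Cyp2c11, above background, by 1.34 (limma adjusted p = 0.219). The part of these markers in the C8g difference was not tested.

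Genes near background in exactly 1 organ carried 12 of the 89 calls, 5 in the 801 genes near background in liver (0.624%) and 7 in the 507 near background in kidney (1.38%). A change in the organ where the gene was near background could not be read well. Ptgs2, cyclooxygenase 2, read 5.74, 6.47, 7.12, 6.49 and 7.06 in kidney controls and 4.29, 4.79, 4.98 and 5.08 in treated kidneys. All 9 liver arrays read between 2.65 and 3.52. Ptgs2 fell 3.46-fold in kidney and had an organ difference of 1.87 ± 0.28 (SE, limma adjusted p = 0.000176). Tnfaip3, an inhibitor of NF-kB above background in both organs, fell 1.44-fold in kidney and differed by 0.85 ± 0.20 (SE, adjusted p = 0.0239). These were the 2 calls among 29 measured genes of NF-kB inflammation, of which 5 had an unadjusted p under 0.05 and 21 lay above 0 (18 with arrays centred on their median, where 1 was called).

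Adh7, an alcohol dehydrogenase that also oxidises retinol, read 5.77, 6.35, 6.43, 6.10 and 5.68 in liver controls and 7.61, 7.71, 7.75 and 7.18 in treated livers, and between 2.99 and 3.47 on all 9 kidney arrays. It rose 2.83-fold in liver, and its organ difference was 1.60 ± 0.30 (SE, limma adjusted p = 0.00387). Gpam, an acyltransferase that starts triglyceride synthesis, and Ugt2b34l1, a glucuronosyltransferase, were also near background in kidney and liver-ward, by 1.07 and 0.94. Gpam was called under 11 of 29 alternatives, and not with arrays centred (limma adjusted p = 0.0736) or quantile normalized (0.0536), while Ugt2b34l1 was called under 18 of 29. Apoa4, an apolipoprotein, fell 2.07-fold in liver, from 11.55, 11.23, 11.60, 11.42 and 11.32 to 10.96, 9.86, 9.79 and 10.88, with kidney arrays between 3.26 and 4.41. Dmrtc1c1 rose 2.49-fold in kidney, from 10.01, 10.21, 9.09, 9.87 and 10.02 to 11.11, 11.09, 11.39 and 11.02, with liver arrays between 2.94 and 3.55. Cracdl, near background in liver, rose 1.64-fold in kidney. Sit1 and Slc25a34, also near background in liver, had differences of -1.30 and -1.25 with no call in either organ.

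Over all genes 12.3% had an unadjusted p under 0.05 in the organ difference, 12.4% in liver and 13.3% in kidney. Limma called no organ difference in several groups, for which the number at such a p is given. It was 2 of 33 genes of the ER and integrated stress response, 2 of 21 of p53 and DNA damage, 6 of 19 of the circadian clock and 7 of 66 of the respiratory chain. It was also 1 of 41 cytosolic ribosomal proteins, 2 of 24 kidney tubule injury markers and 7 of 41 genes of fibroblasts and extracellular matrix. The clock genes had a median organ difference of -0.35 (-0.43 with arrays centred on their median), and 13 of the 19 lay below 0. Of the 41 fibroblast and matrix genes, 37 changes in kidney and 32 in liver were below 0. Limma called 3 of these genes lower in kidney and 1 in liver, where 1.04% and 0.309% of all genes fell. Their median organ difference was 0.22 (0.14 with that centring). In the growth hormone and IGF axis 5 of 23 genes fell in liver (Ghr, Igf1, Igfals, Igfbp3 and Serpina6), where 0.309% of all genes fell. In kidney limma called none, and 7 had an unadjusted p under 0.05. The organ difference gave no call and 6 such genes. C3, the central complement protein, fell in kidney by 0.64 and was liver-ward by 0.63 ± 0.15 (SE, adjusted p = 0.0343), the 1 call among 36 acute phase and secreted liver proteins. Klf6, an immediate early factor, was liver-ward by 0.87 ± 0.21 (SE, adjusted p = 0.0356), the 1 call among 25 immediate early genes. Each was called under 13 of 30 alternatives. Neither list had a call with arrays centred on their median. Of 34 proteasome genes 2 rose in liver, where 0.739% of all genes rose. An unadjusted p under 0.05 was found for 25 in liver, 1 in kidney and 20 in the organ difference. In the organ difference 1, Psmd2, was called, by 0.32 ± 0.06 (SE, adjusted p = 0.00784), and this held under 27 of 30 alternatives. With arrays centred on their median none of the 34 was called. All 34 lay above 0, against 32 with that centring, and the median was 0.19, against 0.11.

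Markers of other cell types were read in the same groups. The mean of 13 macrophage markers ranged from 8.31 to 8.61 in liver controls and from 8.11 to 8.34 in treated livers, and from 5.94 to 6.05 in kidney controls and 5.76 to 5.94 in treated kidneys. The mean of 10 endothelial markers was lower in treated kidneys (7.92 to 8.01) than in kidney controls (8.05 to 8.16), and ranged from 7.20 to 7.34 and from 7.10 to 7.21 in control and treated livers. The mean of 11 adipocyte markers ranged from 6.36 to 7.26 in kidney controls and from 6.29 to 6.53 in treated kidneys. Of 17 lymphocyte markers 1, the receptor Klrg1, near background in kidney, fell 1.68-fold in liver and had an organ difference of -1.03 ± 0.21 (SE, limma adjusted p = 0.00959). The part of these cell types in the organ differences was not tested.

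The other doses give the course of 6 genes whose 1000 mg/kg values are described above. In liver Gstt3 averaged 9.06 ± 0.20 (SD, n = 5) at 0 mg/kg, 9.90 ± 0.26 (n = 4) at 1, 10.10 ± 0.27 at 10, 9.77 ± 0.33 at 100, 10.34 ± 0.22 at 500 and 10.94 ± 0.17 at 1000 mg/kg. Every dosed group of liver arrays, down to 1 mg/kg, thus lay above the controls for this gene, while kidney means stayed between 11.46 and 11.70. Abcc3 in liver stayed between 5.39 and 5.94 up to 500 mg/kg and reached 7.16 ± 0.38 (SD, n = 4) at 1000 mg/kg. Msmo1 in liver averaged 11.08 at 0 mg/kg, between 11.29 and 11.54 at 1 to 500 mg/kg, and its arrays at 1000 mg/kg ranged from 11.81 to 12.13. Its kidney mean lay between 8.26 and 8.51 at all doses.

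Cks2 in kidney was lower at each higher dose, from 7.58 ± 0.32 (SD, n = 5) at 0 mg/kg through 7.30, 7.23, 6.98 and 6.75 at 1, 10, 100 and 500 mg/kg to 6.20 ± 0.14 (SD, n = 4) at 1000 mg/kg, while liver means lay between 7.87 and 8.20. Gstm1 in kidney averaged 7.77 to 7.90 up to 100 mg/kg, 8.42 ± 0.29 (SD, n = 3) at 500 mg/kg and 8.97 ± 0.22 (SD, n = 4) at 1000 mg/kg. Ccnd1 in liver averaged 9.63 ± 0.49 (SD, n = 5) at 0, 8.91 ± 0.62 (SD, n = 4) at 500 and 8.01 ± 0.23 (SD, n = 4) at 1000 mg/kg. These means are given without a test.

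**Figure D5:**
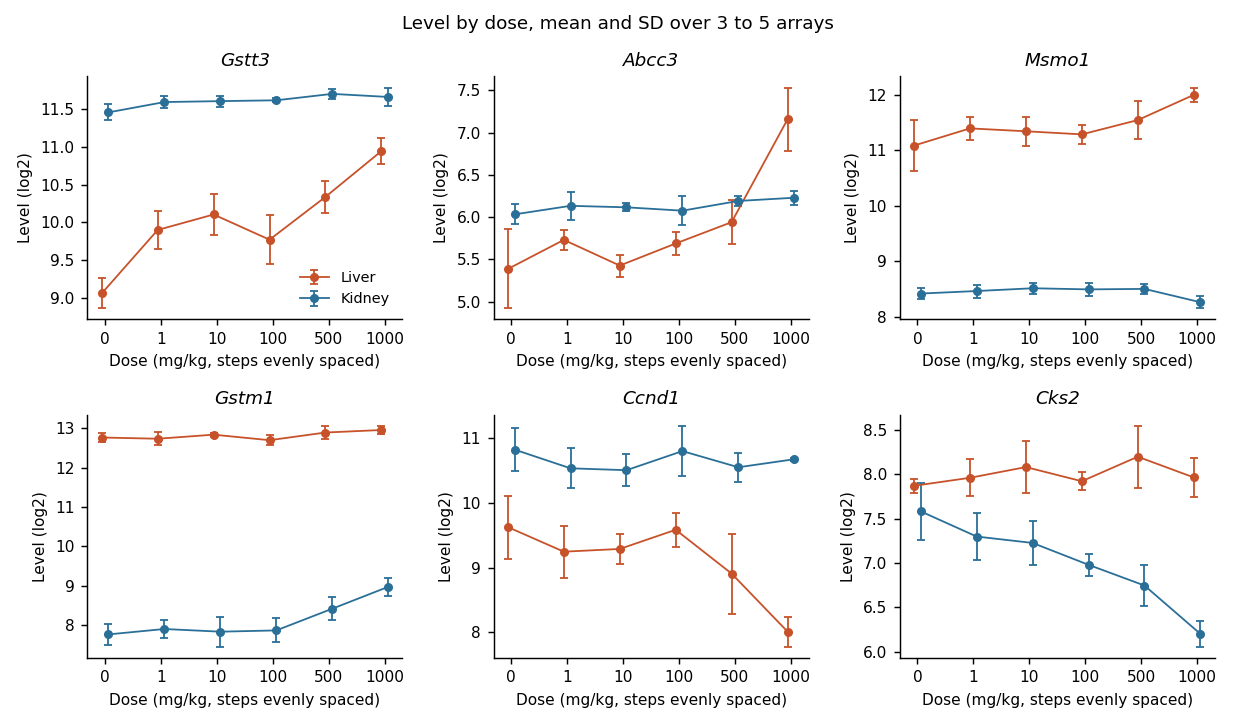
Mean log2 level and SD of 6 genes by dose in liver (orange) and kidney (blue), over 3 to 5 arrays per group, with the doses 0, 1, 10, 100, 500 and 1000 mg/kg at even steps. The liver line of Gstt3 is above its control at every dose, those of Abcc3 and Ccnd1 depart most at 1000 mg/kg, and the kidney line of Cks2 falls at every step.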

How the data were processed

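Total RNA of each tissue sample was hybridized to an Affymetrix whole-genome rat array, per the labels' protocols. For every probe set the authors deposited a log2 level, computed by RMA according to the submitters' processing notes. The version of RMA and whether the organs were normalized together are not given in the sources used here, so responses were compared only through changes from each organ's own controls, and levels in the 2 organs are set side by side only to describe them. Normalization of this kind would remove a shift common to most genes.

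Of 31099 probe sets, 20826 had 1 gene symbol. A gene was represented by its probe set with the highest mean over 49 arrays, which gave 14217 genes. The organ difference was a contrast in a limma 3.58.1 model (R 4.3.3) with 1 mean per organ and dose over 49 arrays, and each organ's change came from a model of its own 25 or 24 arrays. P-values were adjusted by Benjamini and Hochberg over all genes, and genes were called under 0.05. The model of the organ difference was also run on simulated data, with errors drawn independently for each array. The models of the single organs were not.

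Genes named were, among called genes above background in both organs, the 12 largest differences each way, among those near background in exactly 1 organ the 5 largest each way, and for each list its called members and up to 4 with the smallest p. Provisional symbols (LOC, RGD, MGC, AABR) were skipped. Alb, Lrp2, Cdk1, Cdkn3, Kif18b, Nrep, Slpi, Aldh1l1, Pacs2, Ccna2, Top2a, Erg28, Tmem97 and Zwint, the members of lists that were called in 1 organ only, Fdft1, Tm7sf2 and Insig1 were named after their values were seen. The comparison and its lists were chosen with earlier results of these data known. The number of arrays limits the precision. Samples are called biological replicates in the labels. The kidney group at 500 mg/kg has 3 arrays here, where the series text gives 4.

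The alternatives were the mean of probe sets, brighter genes only, quantile normalization, median centring, robust moderation with a variance trend, weights per array, 1 weight per organ, replicate blocks, the 18 arrays alone, other background limits, and leaving out each array, a 500 mg/kg liver array or the kidney arrays high in adipocyte markers.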

Additional observations from a re-analysis of the deposited data

Results flagged for a closer look

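The responses of liver and kidney at 1000 mg/kg differed, by the test of the difference itself, for 89 genes, which are described above.

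For 51 named genes with an organ difference, each of the 4 groups was checked for an array far from the others, 204 groups in all, and 13 array values stood out by Dixon's criterion. Chance flags about 1 in 20 groups. Kidney control replicate 2 stood out for 3 genes, with Sqle at 6.75, Enpp5 at 10.67 and Dmgdh at 8.9971. Liver control replicate 2 was low for Acat2 at 8.19 and Dhcr7 at 9.83. Liver 1000 mg/kg replicate 3 was high for Idi1 at 12.17 and Mvk at 9.42. Kidney 1000 mg/kg replicate 3 stood out for Idi1 at 9.05 and Psmd2 at 10.12. The others were liver 1000 mg/kg replicate 1 for Paqr9 at 10.29, liver 1000 mg/kg replicate 4 for Dmgdh at 10.65, kidney 1000 mg/kg replicate 1 for Cyp3a23-3a1 at 3.56 and kidney 1000 mg/kg replicate 4 for C8g at 7.06.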

How the results depend on the processing

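Against 89 genes with an organ difference, the count was 59 with the mean of all probe sets, 20 with the 18 arrays alone, 42 without kidney arrays high in adipocyte markers, and 34 to 108 when each array was left out in turn. The last 3 also had fewer arrays in the fit. The cause of these changes was not tested. Of 18 cholesterol synthesis genes, 10 were called in the analysis reported, 6 with the mean of probe sets, 6 with quantile normalization, 6 with centring, 1 with the 18 arrays alone, 2 without the kidney arrays high in adipocyte markers, and 2 to 11 with each array left out. The liver count of 149 was 286 in the fit of all 49 arrays and 40 to 137 with an array left out. The kidney count of 220 was 109 without arrays high in adipocyte markers and 97 to 329 with an array left out. Genes near background in 1 organ numbered 1308, and 689 with the limit at the median of the silent genes. Mvk was liver-ward by 0.65, and another of its probe sets with a mean of 4.41 read -0.074 (adjusted p = 0.909), while its remaining one read 0.52 (adjusted p = 0.125). Of 37 other probe sets of 27 called genes, 33 had the same direction and 2, both of Ccnd1, were called.

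Replicate numbers are shared by the organs, but the labels do not say that they mark an animal. For that reason the analysis reported did not take the numbers as pairs. Of 24 pairs with the same dose and number, 13 correlated above 0.1 in their deviations from the group means (median r = 0.11, lowest -0.02). Pairs of the same dose with other numbers had a median r of -0.04. With the number as a random replicate block 112 genes were called, including all 89, and with it as a fixed replicate block over the 18 arrays 6 genes and 0 cholesterol genes were called. Of 24 liver arrays, 20 correlated best with the kidney array of their own number, a hint from the data and not from the design.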

Other observations

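Outside the lists, 2 genes with sterol-related roles had a pattern like that of the cholesterol enzymes, and they were chosen after their values were seen. Erg28, a scaffold of sterol synthesis enzymes, averaged 9.60 ± 0.08 (SD, n = 5) in control and 10.26 ± 0.22 (SD, n = 4) in treated liver, and 7.26 in both kidney groups, an organ difference of 0.66 (limma adjusted p = 0.0146). Tmem97, a sterol-binding membrane protein, differed by 0.59 (limma adjusted p = 0.0463), with a kidney change of 0.00.

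Pacs2, a sorting protein of the ER and mitochondria, was the only gene called in opposite directions in the organs. It rose from 6.23 ± 0.24 to 6.66 ± 0.15 in liver and fell from 7.39 ± 0.10 to 7.08 ± 0.07 in kidney (SD, n = 5 and 4), an organ difference of 0.74 (limma adjusted p = 0.00171). The liver rise was close to the limit (limma adjusted p = 0.0444). The other Pacs2 probe set, with a mean of 4.41, did not show that rise. It changed by 0.02 in liver and -0.33 in kidney, and differed by 0.35 (limma adjusted p = 0.685). Zwint, a kinetochore protein outside the mitosis list, rose in liver by 0.52 and differed by 0.60 (limma adjusted p = 0.0155), with a kidney change of -0.08. Cyp1a1, the classic aryl hydrocarbon receptor target, had a kidney change of 2.12 that was not called (limma adjusted p = 0.186), with SDs of 1.67 in control and 0.98 in treated kidneys.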
